A study of Danio rerio with 12 samples.

Results

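Offspring of zebrafish fed 3 ppm methylmercury (MeHg) were compared with offspring of fish fed 1 ppm. The comparison rested on 6 libraries of the 12 in the series, 3 for each of these parental diets, which were the columns labelled with those doses in the deposited tables. Of the 32674 genes in the tables, 18390 had a mean scaled count of at least 10 over the 12 libraries and were tested, and all of them enter the comparison. A scaled count is the number of sequenced fragments of a gene divided by 1 size factor per library. The fish were of the EK strain, and the parents had eaten their diet through the whole life cycle. The F1 offspring were taken at 5 days post-fertilization, and total RNA was drawn from pools of 5 whole animals, so every tissue of the larva contributed. Libraries of control (0 ppm) and 10 ppm diets, also 3 each, came from the same kind of pools and are given beside the comparison. The labels name the diets of the parents only. Whether pools within 1 diet had different clutches or parents is not stated in them. A p-value here therefore sets a difference only against the spread of pools within diets, estimated over all 12 libraries. In such bulk samples, fewer cells of a type and less RNA per cell cannot be told apart.

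Methylmercury is an organic form of mercury that builds up along food chains, passes from mother to egg and is best known for harming the developing nervous system. It binds thiol and selenol groups of proteins, and glutathione, metallothionein and selenoproteins are among the molecules known to take it up. A zebrafish larva at this age has begun to hunt and has a working retina, liver, pancreas, gut and swimming muscle. Its tissues hold light-driven circadian clocks, in which arntl and clock proteins switch on the genes of their own repressors. The roles given below for single genes are those known from vertebrates in general, mostly from mammals.

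The libraries held between 5.63 and 11.4 M (mega) fragments in these 2 diets, and the depth did not overlap between them. It was 7.44, 7.30 and 5.63 M in 1 ppm libraries 1 to 3 and 8.78, 9.62 and 11.4 M in the 3 ppm libraries. Clock genes also set libraries of 1 diet apart. A clock score, the first principal component of 35 clock genes with 88.1% of their variance, was -3.41, 6.25 and 8.64 in the 1 ppm libraries. At 3 ppm it was -5.18, -4.35 and -4.48. Over all tested genes but 3 myosins, 1 ppm library 1 correlated with the 3 ppm libraries at 0.972 to 0.976, and with the other two 1 ppm libraries at 0.973 and 0.954. The shallowest library, 1 ppm library 3, correlated with the 3 ppm libraries at only 0.929 to 0.945. List medians below are therefore also given against 1 ppm library 1 alone, the 1 ppm library in the low clock state of the 3 ppm libraries, and in a fit that takes the clock score as covariate. For a single gene, 1 of these values is given beside a log2 fold change that became smaller by over 1.5 times or changed sign. Against library 1 alone, the lone library is assumed to vary like those of the other diets. The score hardly varied at 3 ppm or at 10 ppm (-4.81, -4.13 and -4.28). The covariate fit therefore leans on the split within control and 1 ppm that also sets library 1 apart, and these settings are not independent checks. Defining markers of the whole larva were present in all 12 libraries, with scaled counts of 3480 to 5903 for the liver gene fabp10a, 9930 to 33570 for the trypsin gene try, 5135 to 12700 for the rod opsin gene rho, 733 to 1013 for the myelin gene mbpa and 15170 to 44960 for the muscle calcium pump gene atp2a1.

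With limma and Benjamini-Hochberg adjustment over all tested genes, 3 genes differed between the diets, which is 0.0163% of those tested, and all 3 were listed at 0 at 3 ppm. They encode myosin heavy chains of fast muscle, the motors that form the thick filament. In 1 ppm libraries myhz2 (ENSDARG00000012944) had 23420, 14830 and 35540 scaled counts, against 22300, 25600 and 29560 in controls and 18160, 25820 and 27540 at 10 ppm. The gene myhc4 (ENSDARG00000035438) had 1907, 1065 and 2252 at 1 ppm, and myha (ENSDARG00000095930) had 155, 50.7 and 176. In each of the 3 genes, 1 ppm library 2 was the lowest of its diet. The limma adjusted p was 9.93e-13 for myhz2, 1.5e-11 for myhc4 and 3.14e-05 for myha, and folds against libraries at 0 are not given. Values at 3 ppm had no spread, so the size of these p-values rests on the spread of the other diets. The FPKM table also lists these 3 genes at 0 in the 3 ppm libraries, where FPKM is a level per transcript length and library total. No other gene with a mean of at least 10 at 1 ppm was at 0 in all 3 ppm libraries, and the reverse pattern was found for 0 genes.

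The neighbours of these genes were read in both diets. In the gene order of the RefSeq assembly GRCz12tu, which is not the build of the files, the order is taok3b, myhz2, myhc4, myha, myhz1.3, myhz1.2, myhz1.1 and hspb15. The next myosin, myhz1.3, had scaled counts of 16260, 7586 and 19380 at 1 ppm and 18950, 15210 and 23550 at 3 ppm. For myhz1.2 they were 24630, 12560 and 28650 and 25030, 19220 and 28310, and for myhz1.1 they were 61740, 27430 and 64220 and 65210, 52060 and 78890. None of these 3 passed (limma adjusted p = 0.462, 0.734 and 0.489), and in each the diets overlapped. The kinase gene taok3b and the small heat shock gene hspb15 at the ends of the row had log2 fold changes of -0.25 and -0.39 (limma adjusted p = 0.496 and 0.284). The 6 myosins of the row took 2.03%, 1.03% and 2.28% of the scaled counts in the 1 ppm libraries, and 1.69%, 1.4% and 2.04% at 3 ppm. These myosins are near-identical copies, and how the authors' counting shared fragments between copies is not given in the sources used here, so the values of single copies are uncertain. The call of all 3 genes listed at 0 held under each alternative that tested them, other than that of myha with FPKM and 1 added and with limma-voom. Values of 0 in every 3 ppm library largely set this in advance. Every alternative also started from the authors' counting, so the kept call does not address how fragments were shared between copies.

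**Figure D1:**
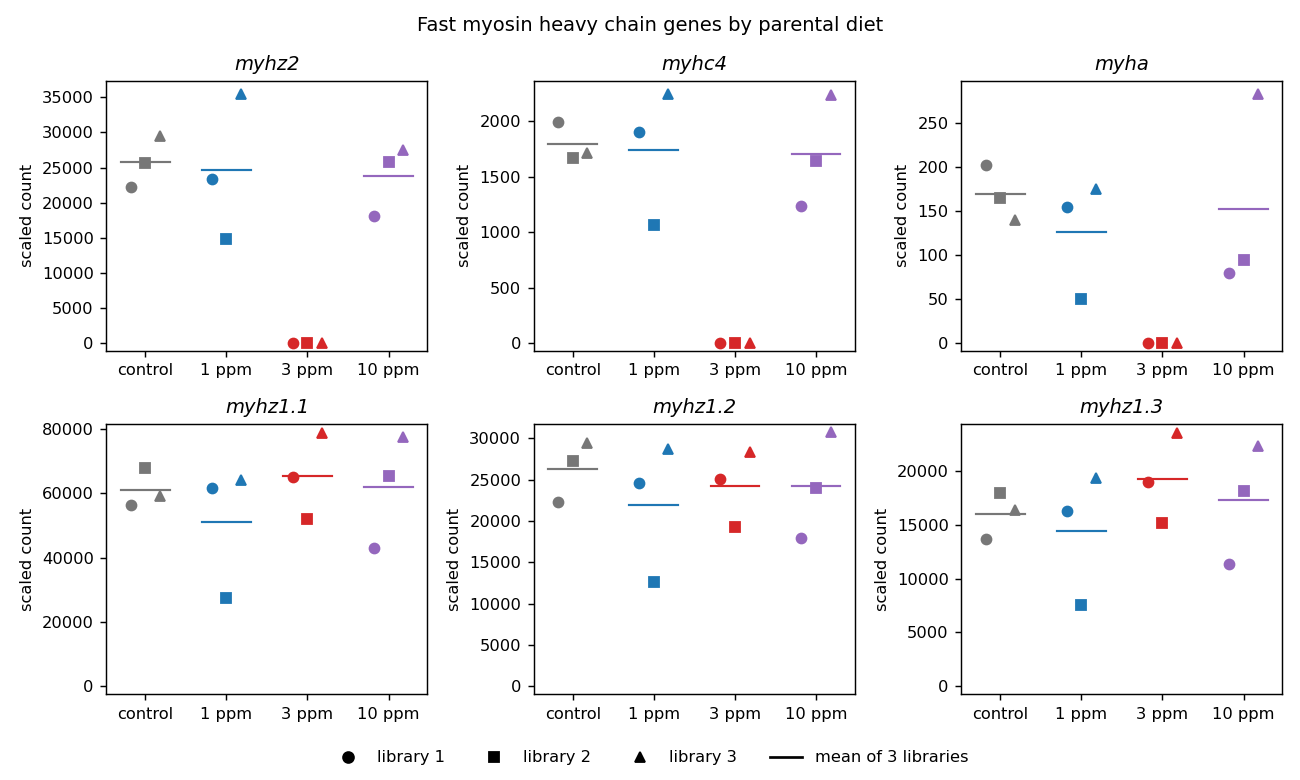
Scaled counts of 6 neighbouring fast myosin heavy chain genes in every library, by parental diet. Points are libraries and lines the means of 3 libraries. The genes myhz2, myhc4 and myha are listed at 0 in the 3 ppm libraries only, while myhz1.1, myhz1.2 and myhz1.3 have 3 ppm values within or just above the range of the other diets.

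Apart from the myosins, 0 of 18387 genes passed with limma, and the smallest adjusted p was 0.174. At an unadjusted limma p under 0.05, 1457 genes (7.92%) were higher and 1440 (7.83%) lower at 3 ppm. Every 3 ppm library lay above every 1 ppm library in 10.6% of genes and below it in 11.2%. Log2 fold changes were above 0 in 49.5% of genes, and their median was -0.006. With 1 ppm library 1 alone they were above 0 in 8586 of the 18387 genes and below 0 in 9801, with a median of -0.024. Against 1 ppm library 1 alone, 270 genes were higher and 253 lower at an unadjusted p under 0.05. Taking the clock score as covariate, the counts were 665 and, with the 3 myosins included, 753. The values that follow describe genes that did not pass, and each gene count should be read against the values over all genes in the same setting.

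The higher gene of smallest p was inhbb, which encodes the beta B subunit shared by activin B and inhibin B. Its scaled counts were 106, 92.9 and 90.1 in the 1 ppm libraries and 179.8, 207 and 299.6 in the 3 ppm libraries (log2 fold change 1.21 with SE 0.21; adjusted p = 0.195 by limma). The 10 ppm libraries, at 206, 257 and 324, were also above all controls, at 85.2, 112 and 126. The kinase gene dyrk1aa, whose human counterpart lies in the Down syndrome region, had 128, 106 and 119 at 1 ppm and 219, 234 and 215 at 3 ppm (log2 fold change 0.92 with SE 0.17; adjusted p = 0.209 by limma). The 10 ppm libraries had 125, 192 and 160.5, all below the 3 ppm libraries. The actin-signalling adaptor gene nckipsd had 149, 156 and 179 and 254, 297 and 308 (log2 fold change 0.82 with SE 0.16; adjusted p = 0.239 by limma). It was called with estimated library weights (adjusted p = 0.0452) and not under the other 19 alternatives.

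The other 9 of the 12 higher genes of smallest p had various roles. The repressor gene hbp1, which slows the cell cycle, had 168, 158 and 151 at 1 ppm and 218, 280.2 and 288 at 3 ppm (log2 fold change 0.71, SE 0.14). The receptor gene notch1b had 104, 75.2 and 86.6 and 144, 155 and 186. Log2 fold changes were 0.86 for it and 0.79 for cdc14aa, a phosphatase gene of the cell division cycle. In the liver, bhmt remethylates homocysteine to methionine, and it had 4439, 3820 and 3820 at 1 ppm against 5835, 5942 and 6655 at 3 ppm (log2 fold change 0.61, SE 0.13). Coagulation factor X, f10, had 298, 270.3 and 254 and 464, 437 and 400.0. The amino acid transporter gene slc6a18 had 31.5, 16.1 and 18.7 and 63.4, 49 and 46.8 (log2 fold change 1.27, and 0.72 against 1 ppm library 1 alone). The basement membrane proteoglycan gene hspg2 had 326, 241 and 213 and 451, 381 and 451 (log2 fold change 0.74, and 0.39 against library 1 alone). The class I histocompatibility gene mhc1zca had 14.5, 26.2 and 29.2 at 1 ppm, 51.6, 40.6 and 67.1 at 3 ppm and 90.9, 80.7 and 74 at 10 ppm, with controls of 41.3, 37.8 and 40.3. Its lowest value was in 1 ppm library 1. For igsf3, a membrane protein gene of the immunoglobulin superfamily, they were 54.4, 54.9 and 43.3 at 1 ppm and 89.9, 83.1 and 88.6 at 3 ppm. The limma adjusted p was 0.239 for these 9 genes. Their values did not overlap between the diets, which a choice by smallest p favours.

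Of the 12 lower genes of smallest p, 3 are described first. The vesicular GABA transporter gene slc32a1, which marks inhibitory neurons, had scaled counts of 394, 566 and 478 at 1 ppm and 246, 329.8 and 322 at 3 ppm (log2 fold change -0.67 with SE 0.15; adjusted p = 0.239 by limma). Controls had 477, 511 and 469.6 and 10 ppm libraries 395, 383 and 368, so 3 ppm was below all other libraries. Against 1 ppm library 1 alone its log2 fold change was -0.41. The gene arhgef9b encodes collybistin, which anchors gephyrin and GABA receptors, and it had 220.3, 321 and 279.6 and 144, 121 and 147 (log2 fold change -0.98 with SE 0.17; adjusted p = 0.195 by limma). The synaptotagmin gene syt13 had the smallest p of the lower genes, with 254, 375 and 308 at 1 ppm, 139, 179.7 and 163 at 3 ppm and 228, 213 and 192 at 10 ppm (log2 fold change -0.94 with SE 0.16; adjusted p = 0.174 by limma).

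The other 9 lower genes follow. The gap junction gene cx43, which couples astrocytes and other cells, had 906, 995 and 980.5 at 1 ppm and 678, 596 and 712 at 3 ppm (log2 fold change -0.54, SE 0.12). The 14-3-3 gamma gene ywhag2 had 908, 1018 and 993 and 653, 692 and 666 (log2 fold change -0.54, SE 0.12). In slc24a3, a gene for a potassium-dependent sodium-calcium exchanger, they were 361, 467 and 495 and 248, 308 and 286, with a log2 fold change of -0.64, of -0.37 against 1 ppm library 1 alone and of -0.38 with the clock covariate. The gene phyhipla had 194, 252 and 225 and 130.5, 138 and 146. The glycosylation subunit gene ost4 had 72.3, 80.3 and 97.1 and 53.1, 41.2 and 45.7. In dedd1, a death effector domain gene, 1 ppm libraries had 85.5, 101.9 and 123.3, 3 ppm libraries 41, 42.2 and 29.9 and controls 24.6, 60.6 and 43.6, so here 1 ppm was above the controls and 3 ppm within their range. Its log2 fold change was -1.43, and -0.92 with the clock covariate. The unnamed genes si:ch211-11c15.3, zgc:77880 and si:ch211-93g23.2 had log2 fold changes of -0.59, -0.70 and -1.42. The limma adjusted p was 0.239 for these 9 genes. None of the 24 higher and lower genes changed sign in any of the 20 alternatives that tested it. They were chosen by smallest p in these same libraries, and none overlapped between the diets. Leaving out libraries therefore could not change a sign, and the kept signs are no independent check.

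**Figure D2:**
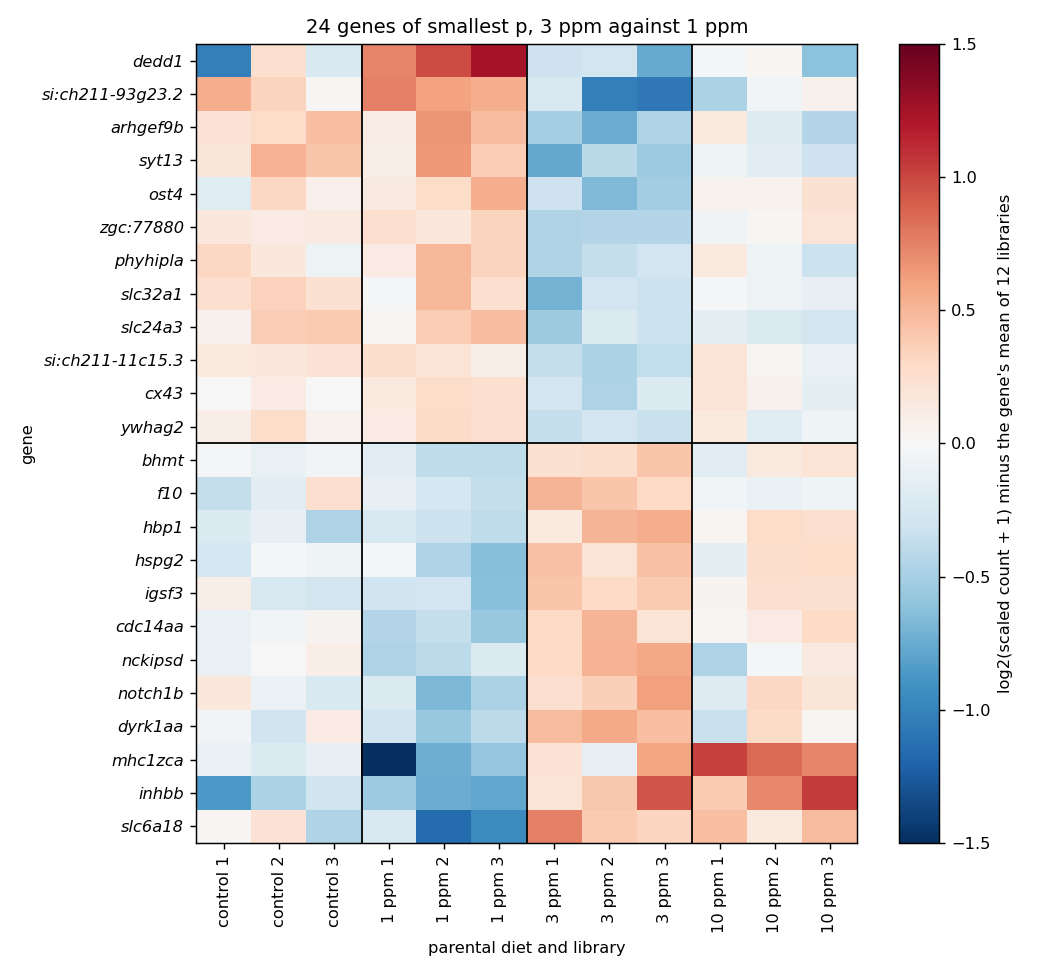
Log2(scaled count + 1) minus the gene's mean over 12 libraries for the 12 lower (top) and 12 higher (bottom) genes of smallest p, by library; red is above and blue below the gene's mean. The 3 ppm columns are blue above and mostly red below, opposite to 1 ppm, as the choice of genes sets. Higher genes that are also above their mean in every 10 ppm column include inhbb and mhc1zca and, less strongly, slc6a18 and igsf3. The gene dedd1 is red in the 1 ppm columns above all others.

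Gene lists were then read by their counts and medians. Among synaptic vesicle release genes, 17 of 48 tested were higher and 31 lower at 3 ppm, with a median log2 fold change of -0.10. At an unadjusted limma p under 0.05, 17 (35.4%) were lower and 0 higher. None passed over all genes. Synapsin syn2a, which tethers vesicles, had 589, 707 and 574 at 1 ppm and 399, 477 and 438 at 3 ppm (log2 fold change -0.51 with SE 0.12; adjusted p = 0.239 by limma). Endophilin sh3gl2, which acts in vesicle recycling, had 428, 646 and 501 and 298, 315 and 347 (log2 fold change -0.69, and -0.42 against library 1 alone). In both genes every 3 ppm library was below every 1 ppm library. The vesicular glutamate transporter gene slc17a7a went the other way, with 74, 84.5 and 42.1 and 89.9, 92.8 and 89.1 (log2 fold change 0.49, and 0.29 against library 1 alone), and the active-zone gene bsnb had a log2 fold change of 0.37, or 0.046 against library 1 alone, with overlapping diets. As a level, the median over members of the deviation from each gene's mean was 0.020, 0.18 and -0.023 in the 1 ppm libraries and -0.25, -0.063 and -0.12 at 3 ppm, and it was 0.18, 0.14 and -0.028 in controls and 0.088, 0.11 and -0.032 at 10 ppm. Its median log2 fold change was -0.15 against 1 ppm library 1 alone, with 35 of 48 lower and 2 of them at an unadjusted p under 0.05, and -0.22 with the clock covariate. It ranged from -0.21 without 1 ppm library 3 to -0.085 without 3 ppm library 1 when 1 library was left out.

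GABA and glutamate signalling genes had members on both sides, 30 higher and 35 lower of 65, with a median of -0.026. At an unadjusted p under 0.05, 5 (7.69%) were higher and 13 (20%) lower. Lower values were found for the AMPA receptor subunit gene gria4a, with 163, 229.8 and 195 at 1 ppm and 98, 133 and 116 at 3 ppm (log2 fold change -0.75, and -0.41 with the clock covariate), and for the GABA-A receptor subunit gene gabrb2, with 238, 268 and 209 and 125, 193 and 155 (log2 fold change -0.61). The GABA-synthesising enzyme gene gad1b had 1128, 1616 and 1059 and 662, 1066 and 944, and 1 value of 3 ppm overlapped those of 1 ppm. Higher values were found for the glutamate transporter gene slc1a7a, with 19.6, 8.45 and 2.34 and 34.6, 45.1 and 49.1, and the rho-type GABA receptor gene gabrr3a, with 7.65, 4.22 and 3.51 and 11.1, 18.7 and 9.59. Both are genes known from the retina. Their log2 fold changes of 2.33 and 1.21 were 1.08 and 0.65 against 1 ppm library 1 alone. The values of 2.34 and 3.51 in 1 ppm library 3, where 1 fragment equals 1.17 scaled counts, are near the floor. Another rho-type receptor gene, gabrr1, had 20.4, 70.1 and 37.4 and 13.3, 25.1 and 15.2, against 39.5, 83.9 and 55.6 in controls and 8.54 to 12.4 at 10 ppm. The glial glutamate transporter gene slc1a2a had 45.9, 80.3 and 44.5 and 45.7, 41.2 and 50.2, with overlap. The median of the list was -0.046 against library 1 alone and -0.18 with the clock covariate, and ranged from -0.17 without 1 ppm library 3 to 0.12 without 1 ppm library 2.

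Genes of neuronal differentiation were 34 lower and 24 higher of 58, with a median of -0.087 and 12 (20.7%) lower and 5 (8.62%) higher at an unadjusted p under 0.05. The stathmins stmn1b and stmn2a, which regulate microtubules in growing axons, and maptb, a tau gene, led it. Scaled counts of stmn1b were 3806, 4337 and 3670 at 1 ppm and 2378, 2671 and 2651 at 3 ppm (log2 fold change -0.61 with SE 0.15; adjusted p = 0.239 by limma). Those of stmn2a were 1083, 1185 and 1203 and 854, 904 and 820.3 (log2 fold change -0.43), and those of maptb 602, 542 and 589.7 and 418, 469 and 396 (log2 fold change -0.44). These log2 fold changes were -0.57, -0.34 and -0.50 against 1 ppm library 1 alone and -0.71, -0.40 and -0.45 with the clock covariate. The list median was -0.16 against library 1 alone and -0.14 with the clock covariate. The axon-guidance gene dpysl2b was higher in every 3 ppm library, with 230.5, 234 and 224 and 309.6, 349 and 313 (log2 fold change 0.49). Myelin and glia genes had 13 of 19 lower and a median of -0.099, which was -0.15 against library 1 alone and -0.17 with the clock covariate. The calcium-binding glial gene s100b had 128, 147 and 152 and 99.5, 88.9 and 95.9 (log2 fold change -0.58 with SE 0.14; adjusted p = 0.239 by limma), and the radial glia gene fabp7a had 1477, 1609 and 1826 and 1497, 967 and 1161, with overlap. The myelin gene mbpa had a log2 fold change of 0.023, and of -0.15 against library 1 alone.

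Liver genes were higher at 3 ppm in most members. Of 67 hepatocyte genes, 55 (82.1%) were higher, and the median was 0.47. At an unadjusted limma p under 0.05, 29 (43.3%) were higher and 2 (2.99%) lower, and none passed over all genes. Besides bhmt and f10 above, ceruloplasmin, cp, a copper carrier of the plasma, had 611, 449 and 398 at 1 ppm and 868, 833 and 761 at 3 ppm (log2 fold change 0.78 with SE 0.18; adjusted p = 0.239 by limma; log2 fold change 0.42 against library 1 alone). Transferrin, tfa, had 8441, 8013 and 5981 and 12490, 12060 and 6675, where 3 ppm library 3 lay within the 1 ppm range. The liver fatty acid binding gene fabp10a had 4135, 3910 and 3480 and 4507, 4632 and 4741 (log2 fold change 0.27, and 0.16 against library 1 alone). Cystathionine synthase, cbsa, which removes homocysteine, was on the other side of the list, with 213, 331 and 366 and 167, 202 and 249 (log2 fold change -0.54, and -0.066 against 1 ppm library 1 alone), as was cyp2ad2 (log2 fold change -0.54, and -0.17 against library 1 alone). The list level was -0.13, -0.11 and -0.43 in the 1 ppm libraries and 0.35, 0.14 and 0.040 at 3 ppm, without overlap. Controls, at 0.13, -0.11 and -0.019, and 10 ppm libraries, at -0.065, -0.060 and 0.34, lay on both sides of 0. Against 1 ppm library 1 alone the median was 0.28, with 56 of 67 higher and 7 of them at an unadjusted p under 0.05, and it was 0.28 with the clock covariate. It ranged from 0.29 without 1 ppm library 3 to 0.53 without 3 ppm library 3 when 1 library was left out.

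Exocrine pancreas enzymes had 10 higher and 8 lower of 18, and their median was 0.007. Against library 1 alone 16 of 18 were lower, with a median of -0.24, and with the clock covariate the median was -0.33. It ranged from -0.46 without 1 ppm library 3 to 0.30 without 1 ppm library 2 when 1 library was left out. Within each diet they varied widely, with a list level of 0.33, 0.72 and -0.83 in the 1 ppm libraries and -0.54, 0.39 and 0.25 at 3 ppm. The trypsin gene try had 22480, 33570 and 10990 and 13770, 25070 and 23460, and the elastase gene ela3l 7785, 8242 and 3730 and 5419, 9620 and 8883. Intestinal absorption genes had a median of 0.054, and of -0.20 against 1 ppm library 1 alone, with 25 of 30 lower, and -0.11 with the clock covariate. The brush border protease gene mep1a.1 had 210.0, 308 and 270.3 at 1 ppm and 195, 139 and 147 at 3 ppm (log2 fold change -0.71 with SE 0.20; adjusted p = 0.239 by limma; log2 fold change -0.41 against library 1 alone). The gut fatty acid binding genes fabp2 and fabp1b.1 were low in 3 ppm library 3 alone, with 3191, 3502 and 1263 for fabp2 and 1248, 1245 and 400.5 for fabp1b.1 at 3 ppm.

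Genes of the respiratory chain were lower at 3 ppm in nearly all members. All 13 mitochondrially encoded subunit genes were lower, with a median of -0.36 and 9 (69.2%) at an unadjusted p under 0.05. Complex I subunit mt-nd3 had 2725, 2854 and 3661 at 1 ppm and 2330, 1986 and 2002 at 3 ppm (log2 fold change -0.54 with SE 0.17; adjusted p = 0.239 by limma; log2 fold change -0.35 with the clock covariate). Cytochrome b, mt-cyb, had 32410, 36860 and 39860 and 30160, 25250 and 23630 (log2 fold change -0.47, and -0.31 against library 1 alone). The 13 genes are cut from shared transcripts of 1 genome and are not independent of each other. Their list level was -0.002, 0.098 and 0.32 in the 1 ppm libraries and -0.047, -0.32 and -0.28 in the 3 ppm libraries, against 0.15, -0.023 and 0.33 in controls and 0.077, -0.26 and 0.056 at 10 ppm, so 1 ppm library 1 and 3 ppm library 1 were the nearest pair. Against 1 ppm library 1 alone the median was -0.20, with 13 of 13 lower and 0 of them at an unadjusted p under 0.05, and with the clock covariate it was -0.27. Leaving out 1 library moved it from -0.44 without 1 ppm library 1 to -0.29 without 1 ppm library 3.

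The nuclear genes of oxidative phosphorylation followed the same direction. Of 87 tested, 78 were lower, the median was -0.31, and 28 (32.2%) were lower and 0 higher at an unadjusted p under 0.05. Subunits were grouped by symbol. All 36 of complex I, the NADH dehydrogenase that feeds electrons into the chain, were lower (median -0.35), with ndufa4, now assigned to complex IV, counted among them. Lower as well were 3 of 4 of complex II (-0.18), 7 of 8 of complex III (-0.33) and 13 of 14 of complex IV (-0.24). So were 11 of 15 of the ATP synthase, complex V (-0.19), and 4 of 6 complex I assembly factors (-0.22). The complex I subunit gene ndufa1 had 499, 506 and 654 and 402, 316 and 400.0 (log2 fold change -0.57 with SE 0.16; adjusted p = 0.239 by limma), and ndufa7 had 201, 188 and 259.7 and 172, 137 and 153 (log2 fold change -0.48). For ndufa4, 3 ppm library 1 lay within the 1 ppm range, at 547, 618 and 745 against 556, 326 and 351. The complex IV isoform cox4i2 and the complex III core gene uqcrc2a were higher by 0.28 and 0.14 on the log2 scale, with overlap, and the log2 fold change of cox4i2 was -0.026 against library 1 alone. The list level was -0.012, 0.058 and 0.38 in the 1 ppm libraries and 0.037, -0.30 and -0.20 at 3 ppm, and 3 ppm library 1 lay within the 1 ppm range. In controls it was -0.102, 0.157 and 0.277, and at 10 ppm 0.061, -0.275 and 0.055, so 10 ppm library 2 was also low. The median was -0.16 against 1 ppm library 1 alone (69 of 87 lower, 0 of them at an unadjusted p under 0.05) and -0.13 with the clock covariate, and ranged from -0.41 without 3 ppm library 1 to -0.20 without 1 ppm library 3.

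Glycolysis and gluconeogenesis genes had a median of 0.043, which was 0.002 against library 1 alone and 0.055 with the clock covariate, with 5 (9.43%) higher and 7 (13.2%) lower at an unadjusted p under 0.05. The members of smallest p were lower. The neuronal glucose transporter gene slc2a3a had 394, 458 and 426 at 1 ppm and 321, 298 and 311 at 3 ppm (log2 fold change -0.46 with SE 0.12; adjusted p = 0.239 by limma). The phosphofructokinase gene pfkpa had 481, 537 and 512 and 429, 379 and 337 (log2 fold change -0.42). Aldolase C, aldocb, had 2024, 3324 and 2725 and 1789, 1851 and 1752, and gapdhs 3653, 5021 and 4757 and 3575, 3348 and 3238. Their log2 fold changes of -0.55 and -0.39 were -0.17 and -0.11 against 1 ppm library 1 alone.

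**Figure D3:**
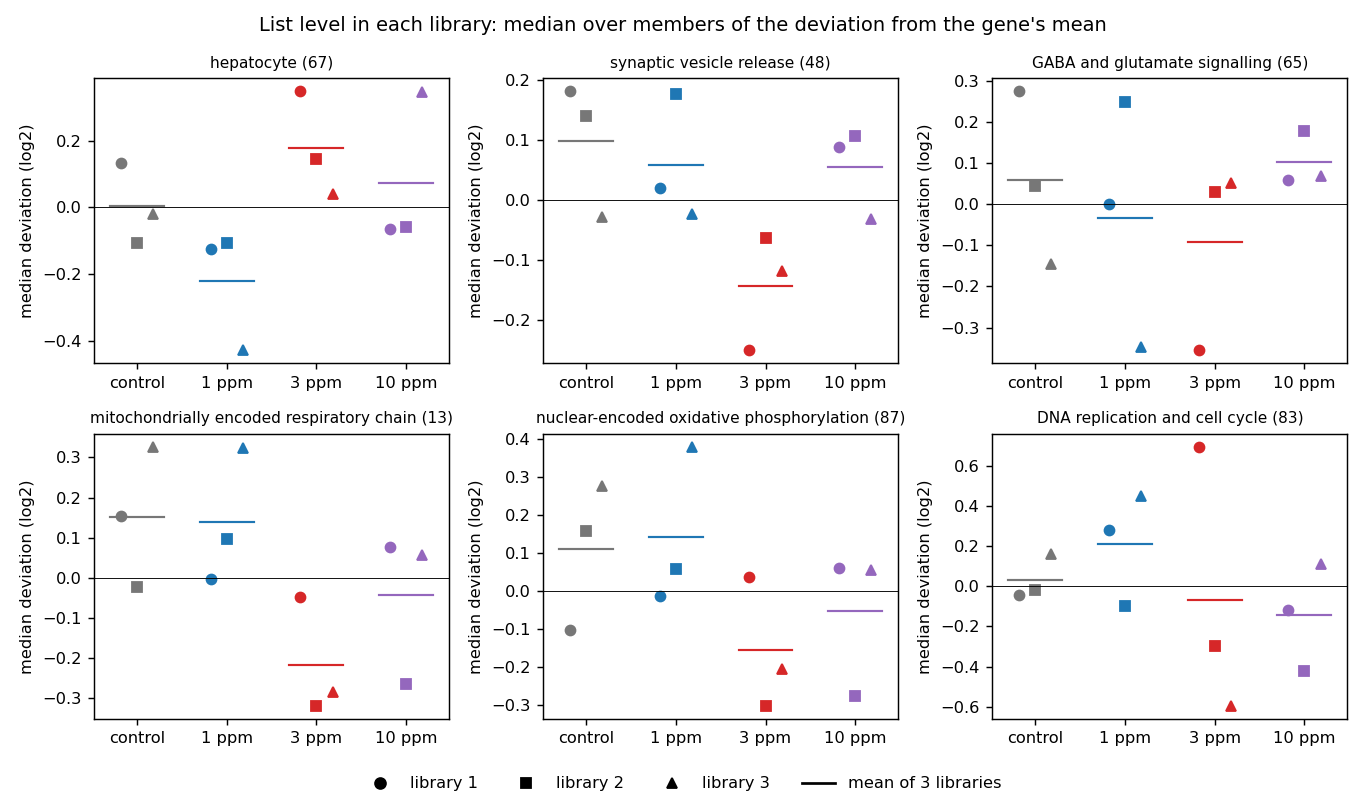
Level of 6 gene lists in each library, as the median over members of log2(scaled count + 1) minus the gene's mean over 12 libraries; the number of members is in brackets, points are libraries and lines the means of 3 libraries. For hepatocyte, synaptic vesicle and mitochondrially encoded genes the 3 ppm points do not overlap those at 1 ppm. In the mitochondrially encoded list the gap is narrow, between -0.002 in 1 ppm library 1 and -0.047 in 3 ppm library 1. It is as narrow in the synaptic vesicle list, between -0.023 in 1 ppm library 3 and -0.063 in 3 ppm library 2. For DNA replication genes the 3 ppm libraries span the whole range, from 0.69 in library 1 to -0.59 in library 3.

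The score is made of the genes of 3 clock lists and library 1 was picked for its low score, so smaller medians of these lists under both settings follow from that choice and are no result. Of the 38 lists, the repressors of the clock had the median farthest from 0, at -1.04 over 15 genes, and it was 0.002 against 1 ppm library 1 alone and 0.30 with the clock covariate. Members went both ways, with 5 higher and 10 lower. At an unadjusted limma p under 0.05, 3 (20%) were higher and 4 (26.7%) lower. The early repressor gene per1b had 57, 549 and 549.9 at 1 ppm and 49.4, 78.6 and 67.1 at 3 ppm, and nr1d1 had 13.6, 394 and 571 and 6.63, 12.9 and 22. In both genes 1 ppm library 1 stood with the 3 ppm libraries. The repressor gene bhlhe40 was lower in every 3 ppm library, with 1090, 1534 and 1578 against 714, 831 and 726, as well as at 10 ppm, with 682, 559.6 and 545 (log2 fold change -0.87 with SE 0.24; adjusted p = 0.239 by limma). Its log2 fold change was -0.53 against 1 ppm library 1 alone and -0.35 with the clock covariate. The receptor gene nr1d4b went the other way, with 70.6, 28.7 and 23.4 at 1 ppm and 89.9, 111 and 95.9 at 3 ppm (log2 fold change 1.42, and 0.47 against library 1 alone). So did cry2b, with 889, 286 and 225 and 1033, 1132 and 1222, and nr1d4a, with 10.2, 10.1 and 4.68 and 14, 16.8 and 16.9. Their log2 fold changes of 1.545 and 0.92 were 0.34 and 0.59 against library 1 alone. Of the positive limb, whose arntl, clock and npas2 members drive the repressors, 10 of 11 were higher, with a median of 0.75. That median was 0.32 against 1 ppm library 1 alone and 0.062 with the clock covariate. The clock activators were divided into 2 lists after values were seen, so the shared direction of this list is partly set by that choice. The gene clockb had 277, 239.9 and 162 and 332, 336 and 357 (log2 fold change 0.63 with SE 0.19; adjusted p = 0.239 by limma; log2 fold change 0.30 against library 1 alone), and rorcb 154, 39.7 and 3.51 and 197, 226 and 251. For arntl1a the values were 282, 179 and 118 and 284, 289 and 282, with 1 ppm library 1 at the level of the 3 ppm libraries.

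Of 9 PAR bZIP and nfil3 factors, which act under clock control, 5 were higher and 4 lower, with a median of 0.15, which was 0.084 against library 1 alone and 0.11 with the clock covariate. Their list level was -0.083, -0.29 and -0.22 in the 1 ppm libraries and -0.17, 0.007 and 0.094 at 3 ppm, so the diets overlapped. The list joins activators and their repressors, and single members differed. The basic zipper gene dbpa had 74, 249 and 187 at 1 ppm and 43.5, 52.8 and 61.5 at 3 ppm, and tefa 444, 2016 and 2225 and 296, 347 and 390.4. The opposing repressor gene nfil3-2 had 226, 55.8 and 28.1 and 319.9, 366 and 534. In these 3 genes 1 ppm library 1 was the nearest of its diet to the 3 ppm libraries. Their log2 fold changes of -1.52, -1.88 and 2.46 were -0.50, -0.37 and 0.81 against 1 ppm library 1 alone. The light-responsive output list had 15 of 20 lower and a median of -0.19, which was -0.022 against library 1 alone and 0.021 with the clock covariate. At an unadjusted p under 0.05, 3 were higher and 7 lower, and against library 1 alone 0 and 0. Of that list, cipcb went with the median, with 126, 305 and 321 at 1 ppm and 106, 95.3 and 95.3 at 3 ppm. Its log2 fold change was -1.22, and -0.35 against library 1 alone. The pineal melatonin enzyme gene aanat2 went against the median, with 41.7, 23.7 and 15.2 and 45.7, 58 and 72.2 (log2 fold change 1.19, and 0.46 against library 1 alone). The sampling time of the pools is not given in the labels, and its part in these values was not tested.

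**Figure D4:**
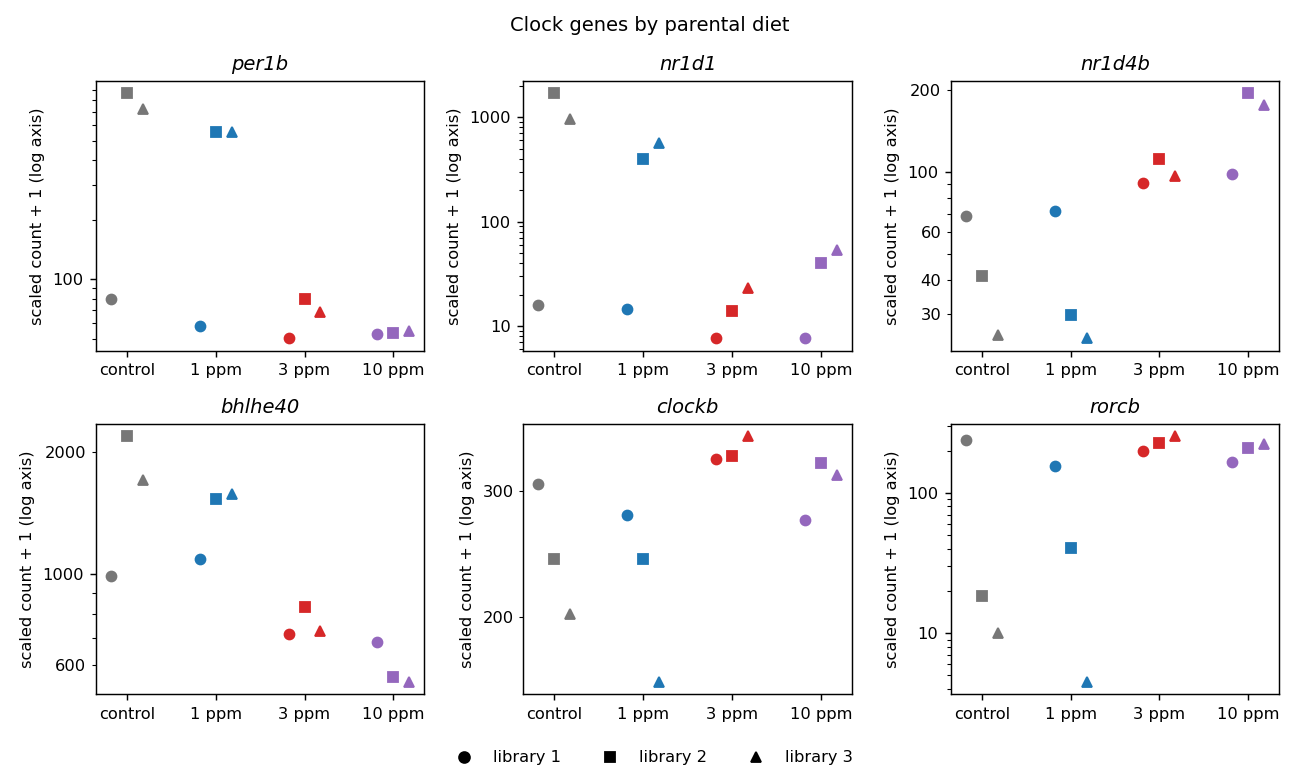
Scaled count + 1 (log axis) of 6 clock genes in every library, by parental diet; points are libraries. In per1b and nr1d1, library 1 of control and of 1 ppm lies with the 3 ppm and 10 ppm libraries, far below libraries 2 and 3 of its own diet, and in rorcb far above them.

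Eye genes went in several directions. Phototransduction genes were 30 higher and 14 lower of 44, with a median of 0.21, which was 0.087 against library 1 alone and 0.034 with the clock covariate. The rod opsin gene rho was higher in every 3 ppm library, with 8029, 6793 and 7880 at 1 ppm and 12700, 10890 and 9619 at 3 ppm (log2 fold change 0.54 with SE 0.23; adjusted p = 0.289 by limma), and its log2 fold change was 0.45 against 1 ppm library 1 alone. The 10 ppm libraries had 5135, 5667 and 11070, with library 3 within the range of 3 ppm and the others below both diets. The rod channel subunit gene cngb1a had 79.1, 40.5 and 37.4 and 102, 107 and 119 (log2 fold change 1.13, and 0.46 against library 1 alone). The ultraviolet cone opsin gene opn1sw1 had 18080, 21010 and 16320 and 21820, 19290 and 21110, with overlap. Lower were the guanylate cyclase activator gene guca1g, with 30.6, 54.1 and 56.2 and 22.1, 15.5 and 15.2, and the phosducin gene pdcb, with 695, 789 and 818 and 622, 597 and 552. Their log2 fold changes of -1.34 and -0.38 were -0.79 and -0.24 against library 1 alone. The visual cycle and pigment epithelium list had a median of -0.39, which was 0.29 against library 1 alone and 0.48 with the clock covariate. The isomerase gene rpe65a, which makes the chromophore of the opsins, had 49.3, 487 and 641 at 1 ppm and 41.3, 138 and 20.9 at 3 ppm. For rdh8a, a retinol dehydrogenase of the photoreceptor, they were 143, 164 and 149 and 199.7, 209 and 172, without overlap. Lens crystallins had a median of -0.022 over 41 genes, which was 0.26 against library 1 alone and -0.16 with the clock covariate. The chaperone crystallin gene cryaa had 505, 432 and 456 and 538, 605 and 676 (log2 fold change 0.38).

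Matrix, cartilage and bone genes had 12 (13%) of 92 higher and 0 lower at an unadjusted p under 0.05, with 61 higher in all and a median of 0.071 that ranged from -0.051 without 3 ppm library 1 to 0.19 without 1 ppm library 3. The median was 0.11 against library 1 alone and 0.23 with the clock covariate. Fibronectin, fn1b, had 1986, 2139 and 1603 at 1 ppm and 2854, 3273 and 3170 at 3 ppm (log2 fold change 0.71 with SE 0.17; adjusted p = 0.239 by limma). The corneal proteoglycan gene kera had 269.6, 257 and 289 and 503, 383 and 457, against 314, 232 and 256 in controls and 432, 409 and 624 at 10 ppm (log2 fold change 0.71, and 0.72 against 1 ppm library 1 alone). The cartilage regulator gene sox9a had 111, 91.2 and 85.4 and 149.6, 151 and 161 (log2 fold change 0.68, and 0.41 with the clock covariate). The collagen chaperone gene serpinh1b was on the other side, with 234, 259 and 559 and 266, 153 and 109, and the diets overlapped. The activin, inhibin and follistatin list of 20 genes also holds tgfb and smad genes, mstnb and bambia. Its median was 0.091, and it was 0.10 against library 1 alone and 0.028 with the clock covariate. After inhbb, the activin receptor gene acvr1bb had the smallest p, with 45.9, 27.9 and 26.9 at 1 ppm and 55.3, 66.3 and 84.1 at 3 ppm (log2 fold change 1.03 with SE 0.30; adjusted p = 0.239 by limma; log2 fold change 0.55 against 1 ppm library 1 alone). The signal transducer gene smad2 had a log2 fold change of 0.26, tgfb2 of -0.25 and the type II receptor gene acvr2aa of -0.12.

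Muscle contractile genes other than the 3 set apart had 50 higher and 34 lower of 84, and 4 (4.76%) higher and 1 lower at an unadjusted p under 0.05. Their median of 0.089 ranged from -0.080 without 1 ppm library 2 to 0.24 without 1 ppm library 3, and was 0.062 against library 1 alone and 0.32 with the clock covariate. The list level was lowest in 1 ppm library 2, with -0.020, -0.39 and 0.28 in the 1 ppm libraries and 0.23, -0.11 and 0.082 at 3 ppm. The calcium pump gene atp2a1 had 31190, 15170 and 43340 and 44470, 31930 and 44960. The slow-muscle troponin gene tnnt1 was lower in every 3 ppm library, with 131, 112 and 145 and 84, 83.1 and 105 (log2 fold change -0.51 with SE 0.16; adjusted p = 0.239 by limma), and the fast-muscle myosin-binding gene mybpc2b was higher, with 521, 332 and 509 and 613, 611 and 602. The myosin chaperone gene unc45b had 92.7, 127 and 322 and 145, 69.6 and 74.5, with overlap. Heart genes had a median of 0.063 over 16, which was 0.011 against library 1 alone and 0.20 with the clock covariate. Log2 fold changes were 0.48 for the regulator gene mef2cb, -0.49 for hand2 and 0.61 for the atrial myosin gene myh6, and the last 2 were -0.22 and 0.27 against library 1 alone. Keratin and skin genes had a median of 0.038 over 38, which was 0.089 against library 1 alone and 0.16 with the clock covariate. The larval keratin gene krt15 had a log2 fold change of 0.37, and the S100-type epidermal genes icn and icn2 of -0.53 and -0.42 (limma adjusted p = 0.239 and 0.254). Against library 1 alone those of krt15 and icn were 0.20 and -0.32.

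Genes of DNA replication and the cell cycle were 65 lower and 18 higher of 83, with a median of -0.32, and 12 (14.5%) were lower and 0 higher at an unadjusted p under 0.05. The 3 ppm libraries did not share that direction. Their list level was 0.69, -0.30 and -0.59, the highest and the lowest of all 12 libraries, against 0.28, -0.096 and 0.45 at 1 ppm. The median accordingly ranged from -0.63 without 3 ppm library 1 to -0.042 without 3 ppm library 3. It was -0.32 against library 1 alone and -0.27 with the clock covariate. The origin recognition gene orc1 had 49.3, 49 and 55 at 1 ppm and 42, 27.7 and 16.9 at 3 ppm (log2 fold change -0.89 with SE 0.29; adjusted p = 0.239 by limma). The kinetochore gene cenpf had 202, 128 and 179 and 416, 166 and 162, where 3 ppm library 1 alone was high. Of the 30 p53 target and apoptosis genes, 2 were higher and 1 lower at an unadjusted p under 0.05, and the median was 0.019, which was -0.004 against library 1 alone and 0.002 with the clock covariate. The p53-induced gene tp53inp1 had 149, 131 and 144 and 205, 211 and 289 (log2 fold change 0.71).

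DNA and histone methylation genes had a median of -0.023, which was -0.036 against library 1 alone and 0.065 with the clock covariate, with 5 (12.5%) of 40 higher and 3 (7.5%) lower at an unadjusted p under 0.05. The methylcytosine oxidase gene tet1 had 28.9, 39.7 and 10.53 at 1 ppm and 50.1, 43.8 and 60.4 at 3 ppm (log2 fold change 1.11 with SE 0.37; adjusted p = 0.239 by limma), and tet3 had 227, 212 and 131 and 233, 290.5 and 283. The histone demethylase gene kdm4aa had 302, 242 and 152 and 315, 406 and 454. In all 3 genes every 3 ppm library was above every 1 ppm library, and 1 ppm library 3 was the lowest. Their log2 fold changes of 1.11, 0.53 and 0.79 were 0.80, 0.24 and 0.36 against 1 ppm library 1 alone.

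No gene of the defence against metals and oxidants passed. The metallothionein gene mt2, whose protein binds heavy metals, had 234, 292 and 396 at 1 ppm and 220.4, 249 and 182 at 3 ppm, against 324, 354 and 459 in controls and 259.5, 169.6 and 195 at 10 ppm (log2 fold change -0.48 with SE 0.21; adjusted p = 0.302 by limma). Its log2 fold change was -0.12 against 1 ppm library 1 alone. In the metal response list, 1 of 18 was higher, the iron-regulatory gene aco1, and 1 lower, mt2, at an unadjusted p under 0.05. The median of that list was 0.074, and it was 0.041 against library 1 alone and 0.082 with the clock covariate. Of the Nrf2, glutathione and thioredoxin genes, 31 of 40 were lower, with a median of -0.18, and 3 (7.5%) were higher and 5 (12.5%) lower at an unadjusted p under 0.05. The median was -0.17 against library 1 alone and -0.079 with the clock covariate. The export pump gene abcc2, which moves glutathione conjugates into bile, was higher, with 332, 482 and 305 and 693, 677 and 542 (log2 fold change 0.79 with SE 0.21; adjusted p = 0.239 by limma; log2 fold change 0.93 against 1 ppm library 1 alone). The glutathione transferase genes gstm and mgst1.2 were lower, with 409.9, 495 and 490.2 and 389, 314 and 312 for gstm and 396, 523 and 529 and 360.4, 341 and 296 for mgst1.2. The Nrf2 inhibitor gene keap1b had 98.7, 93.8 and 115 and 113, 166 and 210.4, with overlap. Haem oxygenase, hmox1a, a classical Nrf2 target, varied within the 1 ppm diet, at 311, 155 and 41, and had 177, 239 and 372 at 3 ppm. The selenoprotein list of 27 genes also holds sephs1, secisbp2, sepsecs, eefsec and selenbp1, which do not encode selenoproteins. At an unadjusted p under 0.05, 1 of the list was lower, sepw2b (log2 fold change -0.43, and -0.16 against library 1 alone), and 0 higher. The list median was -0.16, which was -0.032 against library 1 alone and -0.023 with the clock covariate. The glutathione peroxidase gene gpx1a had 279.8, 372 and 376 and 299, 279.6 and 215, and selenoprotein P, sepp1a, 9889, 9283 and 7899 and 10700, 9949 and 10010.

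Stress response lists held lower and higher members, and none passed. Of 81 heat shock and chaperone genes, 50 were lower, the median was -0.15, and 12 (14.8%) were lower and 2 (2.47%) higher at an unadjusted p under 0.05. The median was -0.11 against library 1 alone and -0.041 with the clock covariate. The chaperone gene hspa4l had 165, 220.5 and 215 at 1 ppm and 119, 118 and 127 at 3 ppm (log2 fold change -0.71 with SE 0.17; adjusted p = 0.239 by limma; log2 fold change -0.44 against library 1 alone), while the chaperonin subunit gene cct2 was higher, with 329, 284 and 281 and 359, 394 and 448 (log2 fold change 0.42, and 0.28 against library 1 alone). Genes of the unfolded protein and integrated stress responses had 26 of 37 lower and a median of -0.17, which was -0.13 against library 1 alone and -0.099 with the clock covariate. The stress-induced regulator gene nupr1 had 856, 799 and 777 at 1 ppm and 534, 567 and 532 at 3 ppm, but 498, 525 and 345 in controls, so the 1 ppm libraries stood above every other library (log2 fold change -0.57 with SE 0.14; adjusted p = 0.239 by limma). Against 1 ppm library 1 alone its log2 fold change was -0.65. The lumenal chaperone gene calr had 733, 741 and 932 and 665, 498 and 489 (log2 fold change -0.55). Glucocorticoid and stress axis genes were 26 higher of 37, with a median of 0.32, and 8 (21.6%) higher and 3 (8.11%) lower at an unadjusted p under 0.05. The median was 0.22 against library 1 alone and 0.44 with the clock covariate. The receptor co-chaperone gene fkbp5, a sensitive target of cortisol, had 148, 63.4 and 66.7 at 1 ppm and 493, 253 and 940.4 at 3 ppm, while controls ran over a wider range, at 319.8, 1283 and 69.9 (log2 fold change 2.5, SE 1.17). The insulin receptor substrate gene irs2b had 113, 112 and 66.7 and 128, 188 and 292, and the corticotropin-releasing hormone gene crhb was lower, with 39.1, 61.7 and 41 and 21.4, 30.3 and 37.2. Immediate early genes had a median of -0.041, with 15 of 25 lower, and the median ranged from -0.16 without 1 ppm library 1 to 0.16 without 3 ppm library 1. The median changed sign to 0.15 against library 1 alone and 0.19 with the clock covariate, and against library 1 alone 19 of 25 were higher. The dopamine neuron regulator gene nr4a2a had 116, 151 and 118 and 67.8, 87 and 90.3 (log2 fold change -0.65 with SE 0.17; adjusted p = 0.239 by limma), and the flow-sensitive gene klf2a 193, 155 and 270.3 and 222, 619 and 924.

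The remaining lists are given more briefly. Of 40 immune and class I presentation genes, 3 were higher and 1 lower at an unadjusted p under 0.05. Their median was 0.11, and it was -0.057 against library 1 alone and 0.029 with the clock covariate. Besides mhc1zca, the class I gene mhc1zba had 79.1, 125 and 140.4 at 1 ppm, 147, 154 and 302 at 3 ppm and 359.6, 353 and 323 at 10 ppm (log2 fold change 0.76, and 1.25 against 1 ppm library 1 alone), and complement c4 was lower, with 150.5, 150.4 and 187 and 109, 105 and 92 (log2 fold change -0.66). Class I genes are polymorphic and differ in number between zebrafish haplotypes, and the genotype of the pools is not given in the labels. The cholesterol synthesis list also holds the receptor genes ldlra and ldlrb and the regulator genes srebf1, srebf2 and insig1. Its median was -0.27 over 21 genes, of which 16 were lower. At an unadjusted limma p under 0.05, 2 were higher and 1 lower. The median ranged from -0.74 without 3 ppm library 1 to 0.037 without 3 ppm library 3. It changed sign to 0.17 against library 1 alone and 0.11 with the clock covariate, and against library 1 alone 16 of 21 were higher. The lipid regulator gene srebf1 was higher, with 57, 82.8 and 36.3 at 1 ppm and 97.3, 138 and 189 at 3 ppm (log2 fold change 1.28 with SE 0.32; adjusted p = 0.239 by limma), and its log2 fold change was 1.25 against 1 ppm library 1 alone. The low-density lipoprotein receptor gene ldlra had 448, 344 and 329 and 573, 548 and 486. On the side of the median, acat2 had 114, 165 and 166 and 139, 86.3 and 87.4, with overlap. Its log2 fold change was -0.52, and -0.16 against library 1 alone. Ribosomal protein genes had a median of -0.046 over 67 and 1 lower at an unadjusted p under 0.05, rpl38. That median was -0.030 against library 1 alone and -0.032 with the clock covariate. Medians were -0.051 for 22 erythroid, -0.12 for 43 cytochrome P450 and -0.14 for 42 proteasome genes, with 0 and 1, 2 and 3, and 1 and 2 higher and lower at an unadjusted p under 0.05. These medians were 0.072, -0.069 and -0.032 against library 1 alone and -0.035, -0.12 and 0.022 with the clock covariate. Of the cytochrome P450 genes, 16 were higher and 27 lower. Log2 fold changes were -0.57 for cyp2ad6 and -0.335 for cyp26b1, and -0.37 and -0.13 against library 1 alone. The cortisol-synthesis gene cyp11c1 went against the median of that list, with 12.8, 10.1 and 9.36 and 16.9, 20 and 18.6 (log2 fold change 0.74).

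**Figure D5:**
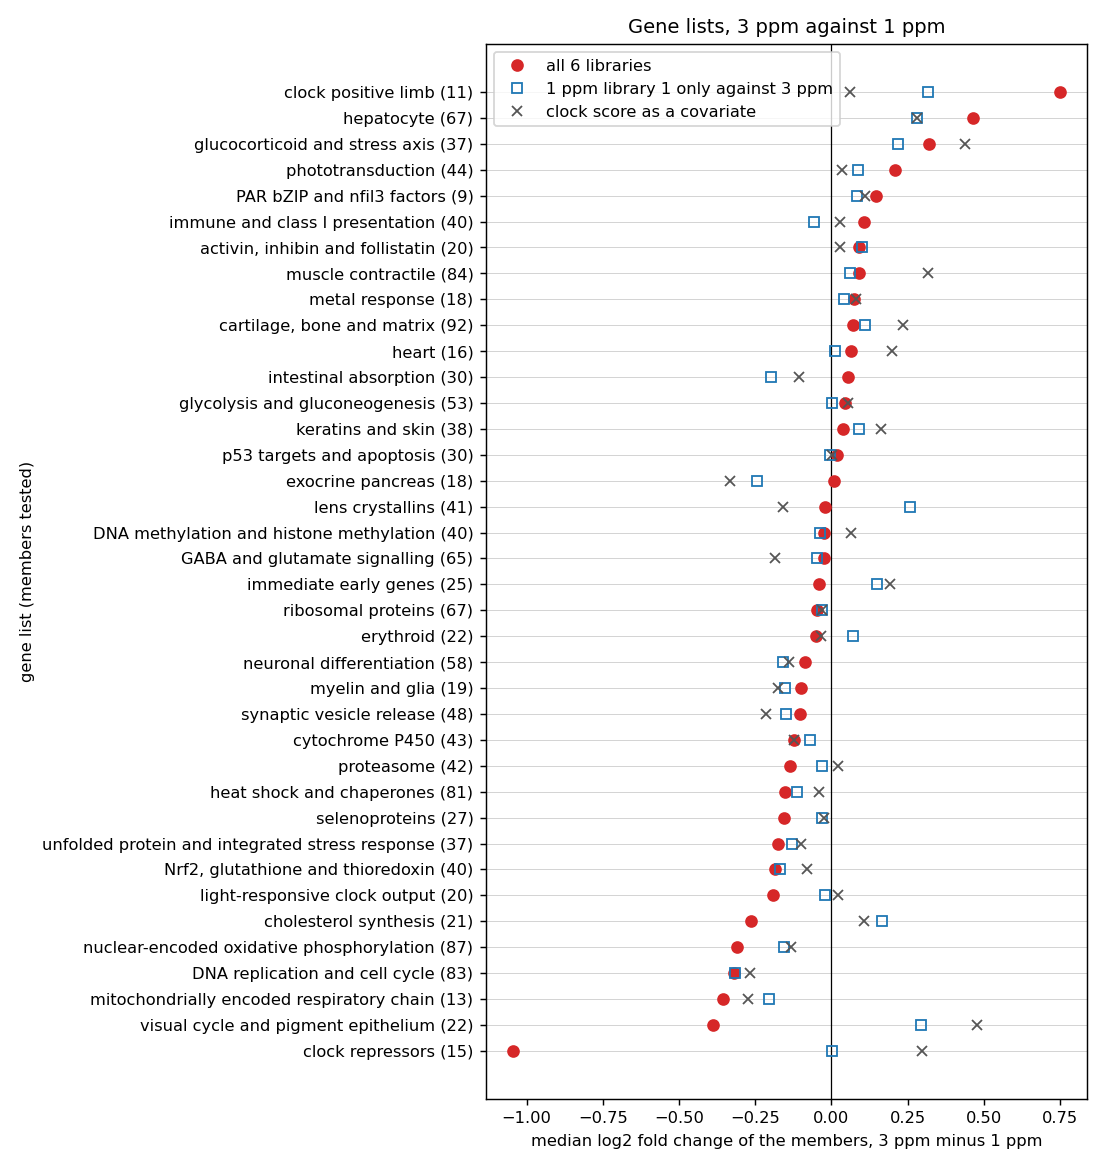
Median log2 fold change, 3 ppm minus 1 ppm, of the tested members of 38 gene lists with all 6 libraries (red), against 1 ppm library 1 alone (blue squares) and in the fit with the clock covariate (crosses). Hepatocyte genes stay above 0 and both respiratory chain lists below 0 in all 3, while the visual cycle median moves from -0.39 to 0.29 against library 1 alone. The clock repressor median moves from -1.04 to 0.002, which the choice of library 1 by its clock genes sets.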

How the data were processed

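Total RNA from 12 pools of 5 whole larvae went into TruSeq libraries, sequenced from both ends for 100 base pairs with 12 samples to a lane, per the labels' protocols. CASAVA 1.8.2, cutadapt, FastQC, TopHat and Cuffnorm, with build Zv9, are named in the submitters' processing notes; the sources used here give no settings, use of strand or annotation release. The authors deposited 2 tables of 32674 genes. The deposited count table holds scaled values, a signal and not raw counts. In each library 98.3% to 98.7% of its nonzero values, the largest left out, were whole multiples of 1 step, to within 0.02 steps. In units of these steps the libraries held 5.63 to 11.8 M (mega) fragments, and this depth limits the precision. The deposited FPKM table holds fragment values scaled by length and library total by the authors.

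The tables name 20495 genes, a table of gene names gave 1553 more, and 10626 had none. From the scaled values, limma 3.58.1 in R 4.3.3 fitted log2(value + 1) for 18390 genes whose mean reached 10, using a mean-variance trend and robust moderation, and all 12 libraries shared the spread. The contrast was 3 ppm minus 1 ppm, two-sided, with Benjamini-Hochberg adjustment at 0.05. Fold changes on this scale understate those of low genes. The clock score was the first principal component of 35 clock genes. Tables and figures were made with Python 3.11.15, pandas 2.3.3 and matplotlib 3.10.9. The fit was tested for the sign and size of known changes on simulated data, with the same spread set for every gene. That simulation held no differences of clock state or tissue among libraries of a diet.

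The genes named were the 3 myosins, those that passed, the 12 of smallest p with a symbol in each direction, for each of 38 lists up to 3 members of smallest p and 2 moving against its median, and fixed markers, of which cry1aa, prss1 and actc1b had no row under these symbols. Some genes that this rule names are not reported here. The comparison, the lists and the alternatives were chosen with earlier results of these data known. After values were seen, genes caught by name only (among them hspg2 and kinases of ribosomal protein S6) were taken out of the lists and the clock activators were divided into 2 lists. Alternatives were other scalings, filters, pseudocounts, FPKM, limma-voom, the 6 libraries alone, a replicate block, library weights, the clock score as a covariate, and libraries left out.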

Additional observations from a re-analysis of the deposited data

How the results depend on the processing

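With limma 0 genes were higher at 3 ppm, and the same count came from the 20 alternatives with these exceptions: 1 gene with FPKM and 0.1 added (ENSDARG00000004312, limma adjusted p = 0.0207), 1 with FPKM and 1 added (the same gene, adjusted p = 0.0283), 1 with library weights (nckipsd, 0.0452), and 0 to 1 when 1 library was left out (ENSDARG00000087157 without 1 ppm replicate 1, ENSDARG00000091049 without 3 ppm replicate 1). The 3 lower genes became 0 without the 3 myosin genes, by construction, and 3 to 5 when 1 library was left out (without 3 ppm replicate 1, which adds si:dkeyp-1h4.8 and ENSDARG00000090403). At an unadjusted p under 0.05 the 1457 higher genes became 927 with a minimum mean of 50, 665 with the clock score as a covariate, 270 without 1 ppm replicates 2 and 3, and 813 to 2023 when 1 library was left out. The 1443 lower ones, myosins included, became 753 with the clock covariate, 256 without 1 ppm replicates 2 and 3, and 919 to 1638 when 1 library was left out. Fewer genes or libraries entered some of these fits; otherwise the cause was not tested. List medians changed sign for 10 of 38 lists without 1 ppm replicates 2 and 3, and for 9 with the clock covariate. Of the 24 leading genes, 4 were smaller by over 1.5 times without 1 ppm replicates 2 and 3 (slc6a18, hspg2, slc32a1 and slc24a3), 2 with the clock covariate (dedd1 and slc24a3) and 1 with FPKM and 1 added (notch1b, 0.57). Deviations of same-numbered libraries of 1 ppm and 3 ppm from their diet means correlated across genes at -0.023, 0.203 and -0.164. With 3 libraries per diet, these values cannot decide whether the numbers pair the libraries. The clock score of libraries 1 to 3 was -3.32, 9.079 and 9.985 in controls, beside -3.41, 6.25 and 8.64 at 1 ppm, and it hardly varied at 3 ppm. With a replicate block 0 genes were higher and 3 lower, and 1429 and 1501 at an unadjusted p under 0.05. The planned quasi-likelihood test on recovered fragments was not run; limma-voom was run on these fragments. Depth was lowest in 1 ppm library 3, at 5.63 M fragments, and limits genes of few fragments most there.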
